A study of Mus musculus with 10 samples.

Results

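The genes described here encode subunits of respiratory complex I, and they were followed in the kidney of male C57BL/6 mice that had reached 30 months of age. They were chosen by name: each has a probe set that the array's platform annotation gives exactly 1 gene symbol, made of Nduf, one of the letters a, b, c, s, v or ab, and a number, without the Ndufaf assembly factors. This found 35 genes of 18194 with a symbol of their own on the array, represented by 77 of 45101 probe sets. Where a gene had several probe sets, the brightest on average was read. All but Ndufb4, whose only such probe set was too dim to be tested, entered the tests, so the results cover 34 genes and 70 probe sets. Another 10 probe sets that name a complex I gene together with another gene were left out, and with them Ndufa11 and Ndufs6.

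Of the 10 mice, 5 lived on a calorie-restricted diet over the long term and 5 on a control diet, with 1 mouse per array, and the comparison asks which transcripts respond to the diet in an old kidney. Strain, sex and age are the same in both groups, and how strong the restriction was and when it began is not given in the sources used. Each Affymetrix array gave a MAS5 signal, a brightness on a linear scale, for every probe set. A difference is the mean log2 signal of calorie-restricted kidneys minus that of control kidneys, with limma's standard error (n = 5 per group), and a gene was called when its adjusted p was below 0.05. Whole kidney was measured, so a change in the number of cells of a type and a change in RNA per cell cannot be told apart.

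Complex I is the entry point of the respiratory chain. It takes electrons from NADH, hands them to ubiquinone and pumps protons out of the mitochondrial matrix. Its matrix arm carries the flavin and the iron-sulfur clusters, its membrane arm carries the pumps, and accessory subunits surround a catalytic core that is shared with bacteria. Genes for the core of the pumps lie in mitochondrial DNA, while all genes of the Nduf family are nuclear. In the kidney, cells of the proximal tubule and of the thick ascending limb are rich in mitochondria, because reabsorption of the filtrate is driven by ATP.

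The promoters of 31 of the 34 genes were found in RefSeq (GRCm38.p6), each as a window of 250 bases before and 50 bases after the start of the transcript. They were searched on both strands for the core letters of the motifs of factors linked to respiratory genes. The YY1 letters, AAGATGGCG, were found in 4 of the 31 genes (12.9%), against 1.64% of 27025 genes with a window. The NRF1 letters, GCGCATGCG, were in 1 of 31 (3.23%), against 1.95% of all genes, and the ETS letters, CCGGAAGT, in 1 of 31 (3.23%), against 4.31%. The ERR letters, TCAAGGTCA, were in 0 of 31, against 0.466% of all genes. Each of the genes with a match held 1 match, so no motif overlapped another there. The 6 genes with a match are shown because they include members on both sides of the diet comparison below. Each stretch runs from 50 bases before to 50 bases after the start, and the matched letters are in capitals.

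Ndufs7, YY1 letters, chr10:80249399-80249498, plus strand: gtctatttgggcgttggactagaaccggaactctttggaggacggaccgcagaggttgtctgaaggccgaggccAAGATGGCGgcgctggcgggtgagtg

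Ndufc1, YY1 letters, chr3:51408906-51409005, minus strand: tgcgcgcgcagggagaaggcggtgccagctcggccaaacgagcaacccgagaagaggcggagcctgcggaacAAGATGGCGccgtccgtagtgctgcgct

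Ndufs4, YY1 letters, chr13:114388045-114388144, minus strand: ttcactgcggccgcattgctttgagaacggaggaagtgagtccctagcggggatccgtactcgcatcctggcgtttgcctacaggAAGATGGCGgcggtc

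Ndufa9, YY1 letters, chr6:126849095-126849194, minus strand: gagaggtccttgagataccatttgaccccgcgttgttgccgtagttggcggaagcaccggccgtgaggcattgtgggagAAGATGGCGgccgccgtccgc

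Ndufs3, ETS letters on the other strand, chr2:90904672-90904771, minus strand: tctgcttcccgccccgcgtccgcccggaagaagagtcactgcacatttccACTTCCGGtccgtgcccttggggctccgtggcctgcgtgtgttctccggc

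Ndufa8, NRF1 letters on the other strand, chr2:36049289-36049388, minus strand: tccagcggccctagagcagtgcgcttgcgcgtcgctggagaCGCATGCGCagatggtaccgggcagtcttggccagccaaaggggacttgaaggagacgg

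All 4 YY1 matches lay in the first transcribed bases, 23 to 36 bases after the start, and their letters hold an ATG. Whether that ATG is the start codon was not determined. Of the 4 genes, Ndufs7 and Ndufc1 were called higher in calorie-restricted kidney, and Ndufs4 and Ndufa9 had differences below 0 that did not pass the threshold.

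Of the 34 subunit genes, 13 were higher in calorie-restricted kidney and 0 were lower. Over all 12196 genes tested, 3.08% were called higher and 3.02% lower, and over all 22519 probe sets 6.09%. The median difference of the 34 was 0.18, from -0.29 to 0.52, with 27 above 0 and 7 below, while the median of all genes was -0.01. Complex I probe sets are bright, and bright probe sets as a whole stood higher in calorie restriction at the authors' scaling. Among the 273 other genes whose signal lay between the quartiles of the subunits (mean log2 signal 13.07 to 14.02) the median difference was 0.17, 217 were above 0 (79.5%), and 16.8% were called higher and 0.733% lower. The subunits' median was therefore close to that of genes of like brightness. The brightest subunits lay above this range, and of the 140 other genes above log2 14, 55.7% were called higher.

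The calls depended on the arrays and on the scaling. For Gapdh and Actb the array carries probe sets at both ends of the transcript, and their 3' over 5' signal (log2, averaged over both genes) measures RNA length and labelling. It was 1.67 ± 0.46 in calorie-restricted and 1.05 ± 0.26 in control kidney (SD, n = 5, 2-sided exact permutation p = 0.0476). The call was lost without any 1 of replicates 1 to 3 of either diet (exact permutation p = 0.0714 or 0.0794). With that ratio as a covariate 0 of the 34 were called, as were 0.0574% of all genes, and the median was 0.19. Calorie-restricted replicates 4 and 5 had ratios within the control range. With these 2 against all controls 0 of the 34 and 0 of all genes were called (median of the 34, 0.21). With replicates 4 and 5 of each diet alone 0 of the 34 and 1.01% of all genes were called (median of the 34, 0.25). Without control replicate 2 the count was 1, and it was 2 without calorie-restricted replicate 1 and 2 without calorie-restricted replicate 2. The share of all genes called in those fits was 0.566%, 1.01% and 0.754%, against 6.1% with all arrays, so calls were lost across the whole array. Without control replicates 3, 4 and 5 in turn it was 7, 7 and 6, and without calorie-restricted replicate 3 it was 8, with 2.34%, 1.71%, 3.46% and 1.42% of all genes called. After quantile normalization, which gives every array the same distribution of signals, the median was 0.02, and 4 genes were higher and 0 lower: Ndufv3, Ndufb7, Ndufv1 and Ndufa10. The background there was 1.59% of all genes called higher and 1.72% lower, and 2.93% and 3.3% of genes of like brightness.

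**Figure D1:**
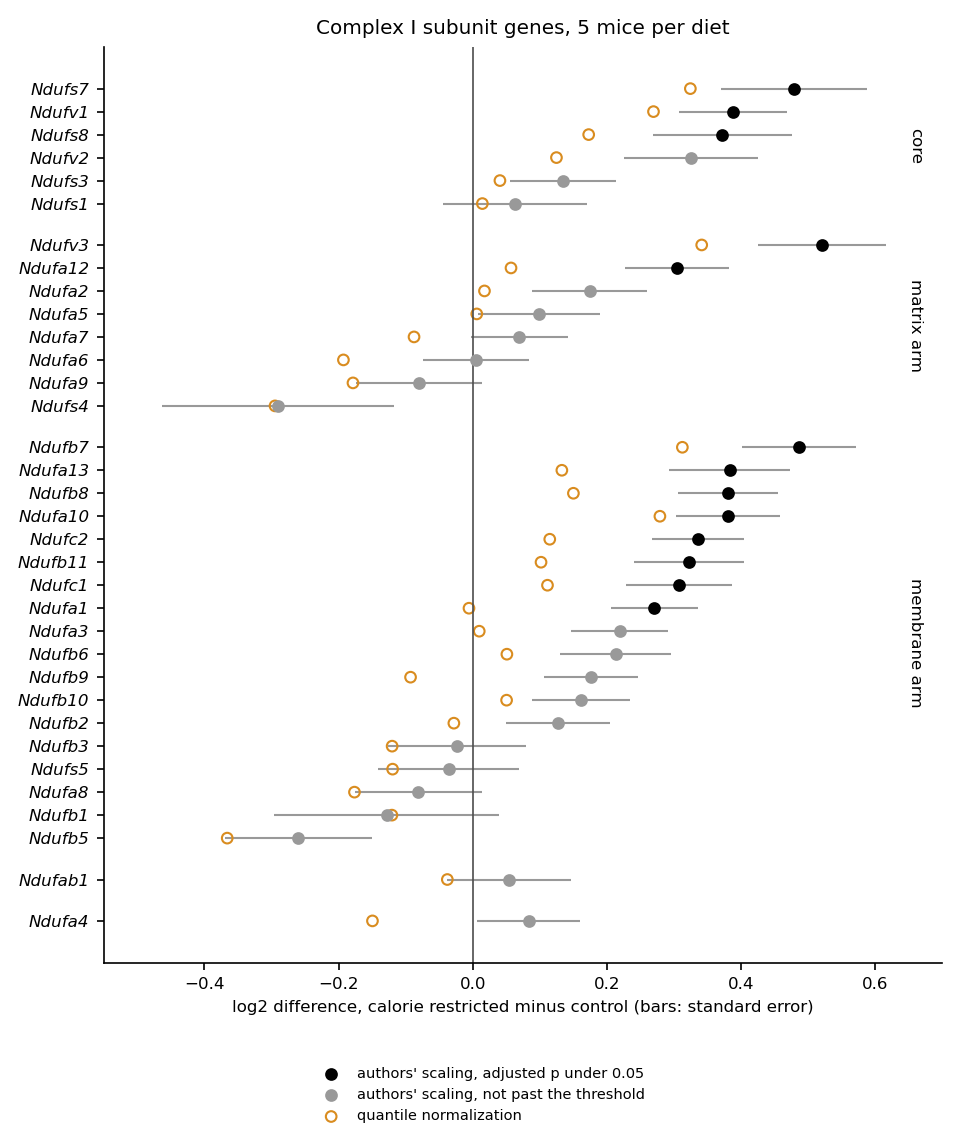
Log2 difference of each of the 34 tested subunit genes (horizontal axis, calorie restricted minus control, bars are standard errors, n = 5 per diet), grouped by place in the complex, with the acyl carrier protein Ndufab1 and Ndufa4 at the bottom. The 13 genes past the threshold (black) lie between 0.27 and 0.52, and after quantile normalization (open circles) nearly all values lie further to the left.

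The catalytic core of the matrix arm was represented by 6 genes, all with differences above 0, of which 3 were called. Ndufv1 encodes the flavin-binding subunit where NADH is oxidized. Its signal was 12388, 12223, 10658, 10440.4 and 9877 in calorie-restricted replicates 1 to 5, against 8749.9, 8369, 8647, 8392 and 8168 in control replicates 1 to 5. All calorie-restricted values lay above all control values, and the highest were those of replicates 1 and 2. The difference was 0.39 ± 0.080 (limma, adjusted p = 0.0213), and 0.27 after quantile normalization, where it also passed.

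Ndufs7 and Ndufs8 encode iron-sulfur subunits that carry electrons towards ubiquinone. Ndufs7 measured 15443, 15738, 11208, 12394 and 10839 in calorie restriction, against 8977, 9111, 9479, 10184 and 8789 in control. The groups did not overlap, and replicates 1 and 2 of the calorie-restricted mice stood clearly apart from the other 3. The difference was 0.48 ± 0.11 (adjusted p = 0.0269) and 0.32 after quantile normalization, short of the threshold there. Ndufs8 measured 20085, 19942, 16879.5, 17214 and 13807 in calorie restriction, against 13563, 11696, 14694, 13322 and 14231 in control. Calorie-restricted replicate 5 lay inside the control range, and the difference of 0.37 ± 0.10 passed narrowly (adjusted p = 0.0495).

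The other core genes were not called. Ndufv2, an iron-sulfur partner of Ndufv1, averaged 18036 ± 2465 in calorie-restricted and 14337 ± 1395 in control kidney (SD, n = 5), with a difference of 0.33 ± 0.10 (adjusted p = 0.0633). Its groups overlapped. Ndufs3, a structural core subunit near the ubiquinone site, differed by 0.14 ± 0.079. Ndufs1, the largest iron-sulfur subunit, averaged 5499.6 ± 552 in calorie-restricted and 5283 ± 724 in control kidney, a difference of 0.06 ± 0.11 that was smaller than the spread between mice.

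Accessory subunits of the matrix arm held both the highest and the lowest difference of the family. Of 8 measured, 2 were called higher and 0 lower, with a median of 0.08. Ndufv3, a small subunit at the NADH end of the arm, measured 18464, 19006, 17236, 14623 and 13855 in calorie restriction, against 12066, 10344, 11934, 11485 and 11759.5 in control. The groups did not overlap, and calorie-restricted replicates 1 to 3 lay above 4 and 5. The difference was 0.52 ± 0.096 (adjusted p = 0.0170), or 0.34 after quantile normalization. Ndufa12, a relative of the assembly factor Ndufaf2, rose by 0.30 ± 0.077 (adjusted p = 0.0370), with 21045 to 24904 in calorie restriction, against 16546 to 19494 in control. After quantile normalization its difference was 0.06.

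Ndufs4, whose loss in mice gives a brain disease like Leigh syndrome, had the lowest difference, -0.29 ± 0.17, which did not pass (adjusted p = 0.303). Its signal was 2560.4, 2549.8, 2669, 4040.1 and 4069 in calorie restriction, against 3913, 4678, 4597, 3162 and 2950.2 in control. Replicates 1 to 3 were low in calorie restriction and high in control, and replicates 4 and 5 were the reverse, so the groups overlapped. In replicates 4 and 5 alone the difference was 0.41, above 0. Ndufa2, Ndufa5, Ndufa6, Ndufa7 and Ndufa9 were not called, with differences from -0.08 to 0.17.

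**Figure D2:**
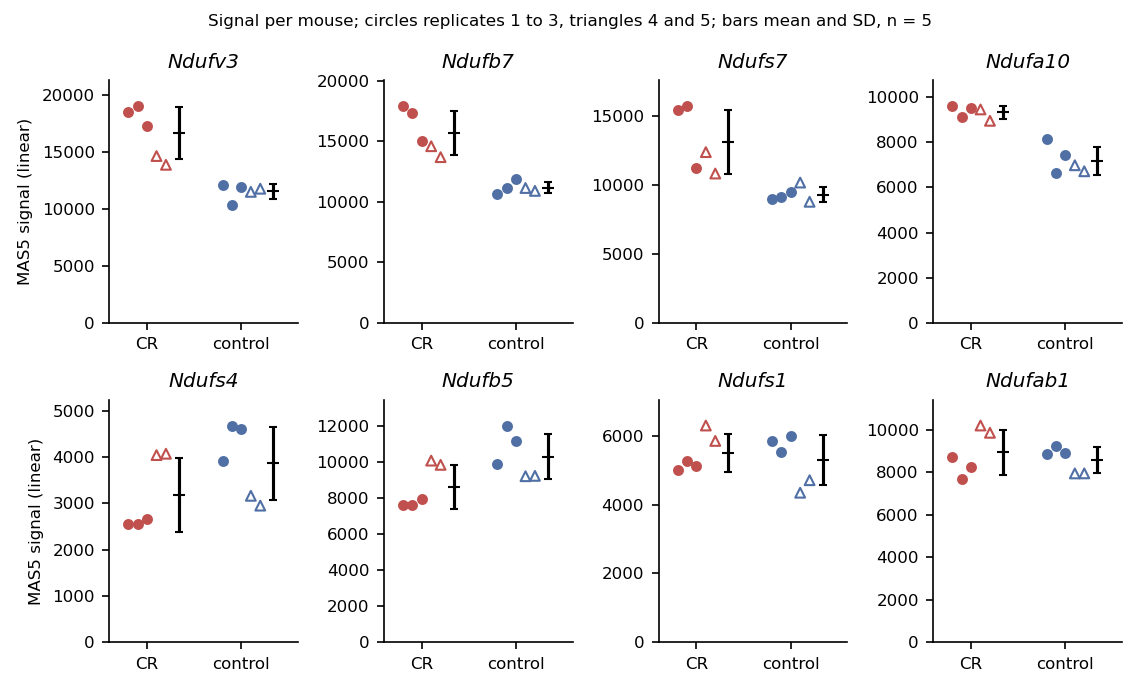
MAS5 signal (linear axis from 0) of 8 subunit genes in each mouse, calorie restricted (CR, red) left of control (blue), with replicates 1 to 3 as circles, replicates 4 and 5 as open triangles, and mean and SD at the side. Ndufv3, Ndufb7 and Ndufs7 are highest in calorie-restricted replicates 1 and 2, while Ndufs4, Ndufb5, Ndufs1 and Ndufab1 are highest among calorie-restricted mice in replicates 4 and 5.

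Accessory subunits of the membrane arm were the largest group, with 18 of the 34 tested genes. Of these 18, 8 were called higher and 0 lower, with a median of 0.22. In the core it was 3 of 6, and among accessory subunits of the matrix arm 2 of 8. The share called higher was 16.8% of genes of like brightness and 3.08% of all genes. Several called membrane arm genes, among them Ndufa1, Ndufa13 and Ndufb8, were brighter than those genes of like brightness. Of the 140 other genes above log2 14, 55.7% were called higher. No difference between the groups was tested. Ndufb7, a cysteine-rich subunit on the side of the intermembrane space, measured 17904, 17342, 15011, 14585 and 13683 in calorie restriction, against 10669, 11151, 11915, 11136 and 10899.5 in control. The groups did not overlap. The difference was 0.49 ± 0.085 with the smallest adjusted p of the family (0.0152), and 0.31 after quantile normalization. It passed under 21 of 28 alternatives, more than any other subunit named here.

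Ndufa10, a membrane arm subunit with the fold of a nucleoside kinase, was the steadiest of the called genes across calorie-restricted mice. It measured 9595, 9118, 9495, 9444 and 8942 in calorie restriction, against 8154, 6633, 7419, 6975 and 6708 in control. The difference was 0.38 ± 0.078 (adjusted p = 0.0209), 0.28 after quantile normalization, and 0.43 in replicates 4 and 5 alone. Its calorie-restricted values differed little between replicates 1 to 3 and replicates 4 and 5 (-0.03).

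Ndufb8, an integral membrane subunit, measured 23607, 22962, 20092, 21615 and 18830.5 in calorie restriction, against 16148, 15790.4, 17067, 16736 and 16258 in control. Its difference was 0.38 ± 0.075 (adjusted p = 0.0198) with the authors' scaling, and 0.15 once arrays were quantile normalized. Ndufc2, also of the membrane arm, rose by 0.34 ± 0.069, with 17356 to 20625 in calorie restriction, against 14652 to 15444 in control. Neither gene's groups overlapped.

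Ndufa13, also known as the cell death regulator GRIM-19, rose by 0.38 ± 0.091, with 19268 to 25044 in calorie restriction, against 16334 to 19495 in control. Its groups overlapped in a narrow range. Ndufb11 rose by 0.32 ± 0.082, Ndufc1 by 0.31 ± 0.079 and Ndufa1 by 0.27 ± 0.065, each without overlap. Ndufa1, the small subunit with the brightest probe set of the family, had a difference of -0.01 after quantile normalization.

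Of the membrane arm genes not called, Ndufa3 came closest, with a difference of 0.22 ± 0.072 (adjusted p = 0.0804) and calorie-restricted values of 17085 to 19879, all above the control values of 14576 to 16821. Ndufb6 differed by 0.21 ± 0.082 and Ndufb9 by 0.18 ± 0.070. Ndufb5 stood on the other side, with 7596, 7621, 7945, 10064 and 9831 in calorie restriction, against 9854, 12007, 11153, 9199.9 and 9220.5 in control. Here too the calorie-restricted replicates 1 to 3 were low and the same numbers in control were high, and the difference was -0.26 ± 0.11 (adjusted p = 0.151). Ndufb1, the dimmest member with 222 to 367 signal units in calorie restriction and 236 to 327 in control, differed by -0.13 ± 0.17. Ndufa8, Ndufb2, Ndufb3, Ndufb10 and Ndufs5 ran from -0.08 to 0.16 without a call.

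Ndufab1, the mitochondrial acyl carrier protein, which sits in both arms and serves fatty acid and lipoic acid synthesis, differed by 0.05 ± 0.092. Ndufa4 carries a complex I name but is now counted as a subunit of cytochrome c oxidase. It averaged 18331 ± 1517 in calorie-restricted and 17282 ± 1166 in control kidney, a difference of 0.08 ± 0.077 (adjusted p = 0.524). At the authors' scaling neither gene's difference was larger than the spread between mice. After quantile normalization Ndufa4 differed by -0.15 ± 0.068, without passing the threshold.

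In 12 of the 34 genes all calorie-restricted values lay above all control values, and in 0 they lay below. Such a separation upwards was found in 3.8% of all genes and in 20.9% of the genes of like brightness, and one downwards in 3.69% and 0.733%. Several of the 12, among them Ndufa1, Ndufa12 and Ndufb8, were brighter than those genes of like brightness. No such share was taken for genes that bright. After quantile normalization the separation upwards was found in 6 of the 34, where the share over all genes was 3.21% upwards and 3.24% downwards.

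Each gene was also set against the 100 other genes nearest to it in mean signal. Of the 34 subunits, 17 lay above the median of their neighbours and 17 below, with a median distance of -0.00. Ndufs7 lay furthest above, by 0.33, and was higher than 93 of its 100 neighbours. Ndufv3 exceeded 92, Ndufb7 91, and Ndufv1 and Ndufa10 88 each. At the other end Ndufb5 lay 0.39 below its neighbours' median and above 6 of them, and Ndufa6 above 10. The family thus spread to both sides of genes equally bright.

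**Figure D3:**
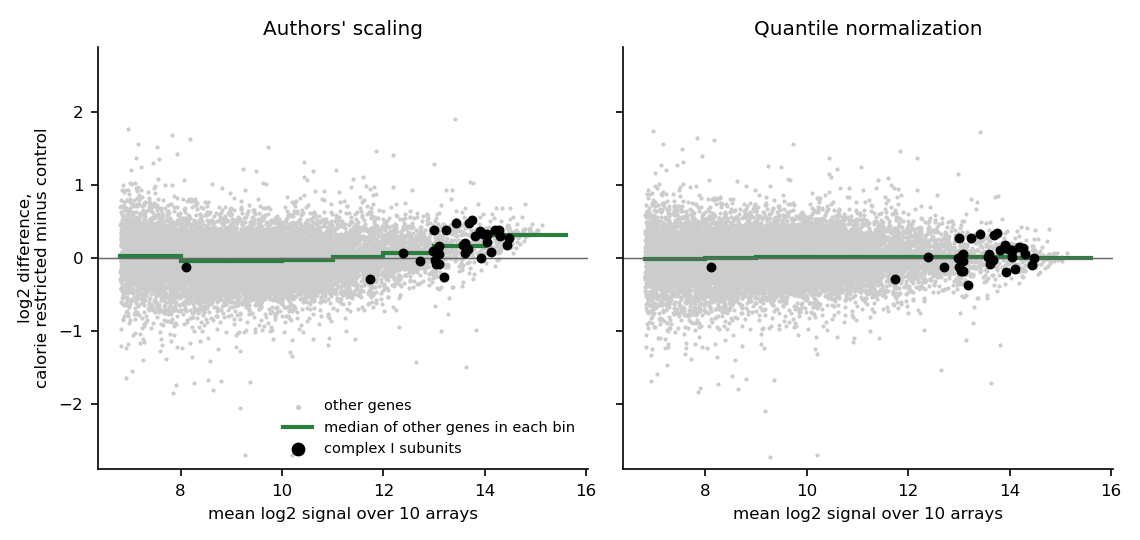
Log2 difference (vertical axis, calorie restricted minus control) against mean log2 signal over 10 arrays for the 34 subunits (black) and all other tested genes (grey), with the authors' scaling on the left and quantile normalization on the right. Green bars are medians of the other genes in each bin of signal. On the left they climb to 0.17 at log2 13 to 14 and 0.31 above 14, and on the right they stay close to 0.

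The climb with brightness was seen in other genes from a mean log2 signal of about 10 upwards. At the authors' scaling their median difference was 0.03 at 6.81 to 8, -0.04 at 8 to 9, -0.05 at 9 to 10, -0.03 at 10 to 11, 0.02 at 11 to 12, 0.08 at 12 to 13, 0.17 at 13 to 14 and 0.31 above 14. In the brightest bin 55.7% of 140 genes were called higher. After quantile normalization all these medians lay between -0.01 and 0.02.

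On single arrays the subunits moved with the genes of like brightness, but not evenly. Relative to each gene's own mean, the 34 subunits averaged 0.12, 0.12, -0.04, 0.16 and 0.07 on calorie-restricted replicates 1 to 5, against -0.10, -0.05, -0.00, -0.10 and -0.18 on control replicates 1 to 5. Calorie-restricted replicate 3 lay below control replicate 3, so the groups overlapped. The genes of like brightness averaged 0.11, 0.12, 0.04, 0.12 and 0.03 in calorie restriction, against -0.03, -0.10, -0.07, -0.13 and -0.09 in control, with no overlap.

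The 13 called subunits and the 21 others are described apart on the calorie-restricted arrays. The calls were made on these same values, so part of any contrast between the profiles is fixed by the choice, and none was tested. The called genes averaged 0.33, 0.33, 0.10, 0.17 and 0.02 on replicates 1 to 5, and the others averaged -0.00, -0.01, -0.13, 0.16 and 0.11. In 12 of the 13 called genes replicates 4 and 5 had a lower mean than replicates 1 to 3, and in 3 of them (Ndufb7, Ndufv1 and Ndufv3) both values lay below all 3. In 18 of the 21 others replicates 4 and 5 had the higher mean, and in 12 both values lay above all 3. In control mice 18 of those 21 genes had their lower mean in replicates 4 and 5, and so did 7 of the 13 called genes, with 6 the other way.

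The 3' to 5' ratio also differed between these replicates. It was 2.21, 2.01, 1.75, 1.24 and 1.16 in calorie-restricted replicates 1 to 5, against 0.91, 0.76, 0.94, 1.39 and 1.25 in control replicates 1 to 5, so that replicates 4 and 5 were the low end of the calorie-restricted mice and the high end of the control mice. Its part in the subunit values was not tested beyond the covariate fit above.

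**Figure D4:**
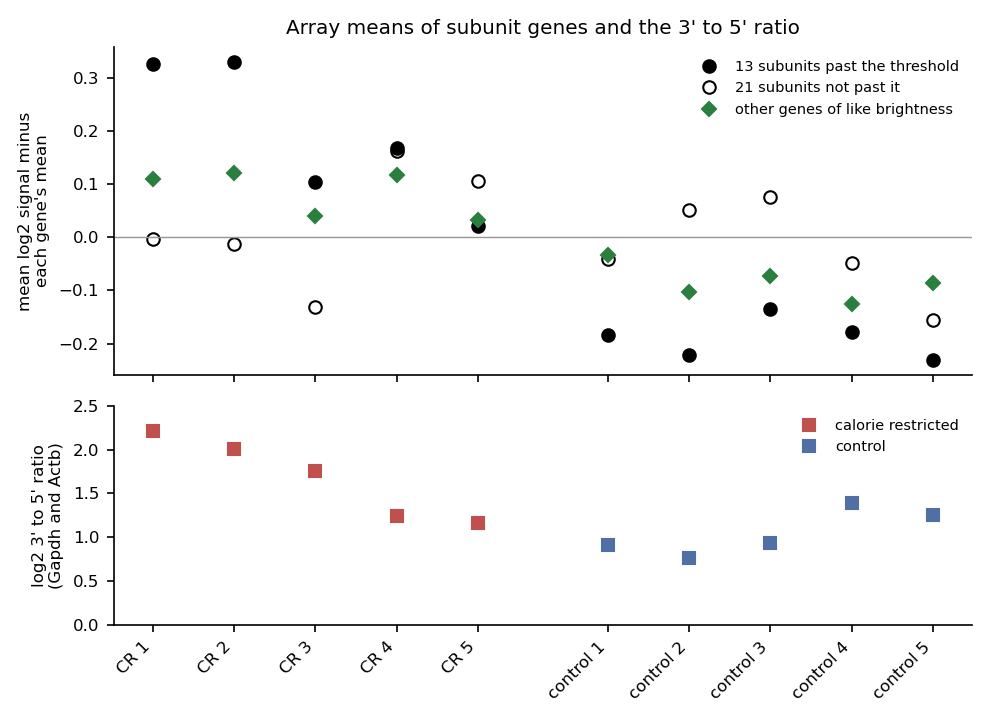
Upper panel: mean log2 signal relative to each gene's own mean, for the 13 called subunits (filled), the 21 others (open) and 273 other genes of like brightness (green), on each calorie-restricted (CR) array at the left and each control array at the right. Lower panel: the log2 3' to 5' ratio of the same arrays. The called subunits are highest, at 0.33, on CR 1 and CR 2, which also have the highest ratios, 2.21 and 2.01.

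Across the family the differences lay closer together in replicates 4 and 5 alone than in replicates 1 to 3 alone. The ratios of the diets were alike in replicates 4 and 5, and a link between ratio and spread was not tested. No such spread was taken for the genes of like brightness. In replicates 4 and 5 all 34 subunits were above 0, from 0.11 for Ndufb5 to 0.44 for Ndufa13, with a median of 0.25. The genes of like brightness on the same 4 arrays had a median of 0.17, and 219 of 273 (80.2%) were above 0. In replicates 1 to 3 alone 23 of 34 were above 0, with a median of 0.16, against 195 of 273 genes of like brightness (71.4%) with a median of 0.17. No difference between the subunits and these genes was tested. In replicates 1 to 3 Ndufv3 stood at 0.67 and Ndufs4 at -0.76. With 2 mice per diet 0 of the 34 passed the threshold, where 1.01% of all genes did, and after quantile normalization of the same 4 arrays the median was 0.09, against 0.02 for the genes of like brightness.

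Several subunits were measured by more than 1 probe set, and these did not give 1 answer. Of 20 genes with several tested probe sets, 10 had differences of both signs. The 10 called genes among them had 18 other probe sets, 3 of which were called: 2 of Ndufs8 and 1 of Ndufv1. Ndufb9 was the opposite case, since its brightest probe set was not called and another, nearly as bright, was (0.39, adjusted p = 0.0179). Ndufb5 had the probe set described above at -0.26 and another at 0.16.

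The kind of probe set went with the difference. Names ending in a_at, s_at or x_at mark probes shared by several transcripts of a gene, by related genes, or open to cross-binding, and a plain at marks probes unique to 1 transcript. The 39 probe sets of the first kind had a median difference of 0.27 with 15 called higher, and the 31 plain ones had a median of -0.01 with 2 called higher. None of the 70 was called lower, and over all tested probe sets 2.93% were called higher and 3.16% lower. Among 16 genes with both kinds, each taken at its brightest, the first kind stood higher in 14, with medians of 0.32 for the first kind and 0.00 for the plain kind. For Ndufv1 the values were 0.39 and 0.01, for Ndufs7 0.48 and 0.04, and for Ndufc2 0.34 and -0.08. After quantile normalization the medians of the 16 genes were 0.11 for the first kind and -0.095 for the plain kind. The kinds were not matched for brightness within these genes. Over the 39 and the 31 probe sets the median log2 signal was 13.62 and 12.995. The part of brightness in the contrast was not tested. At the authors' scaling, other probe sets of like brightness had median differences of 0.18 (302 of the first kind) and 0.13 (149 plain). This comparison was made after the values were seen and was not tested.

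**Figure D5:**
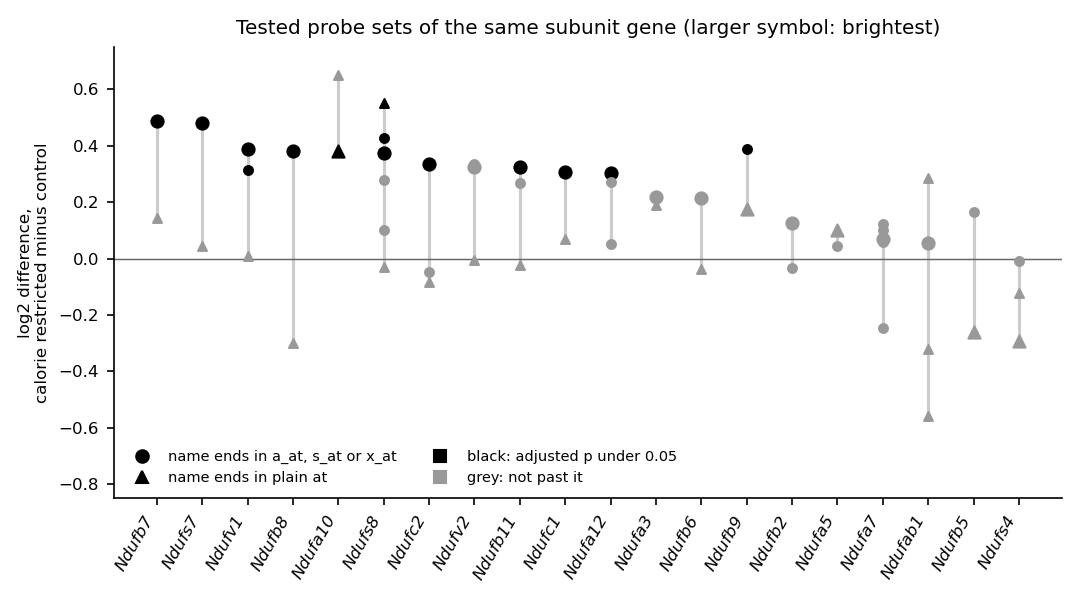
Log2 difference (calorie restricted minus control) of each tested probe set for the 20 subunit genes with more than 1, joined by a line per gene. Circles mark names ending in a_at, s_at or x_at, triangles plain names, black an adjusted p below 0.05, and larger symbols the brightest probe set. In most genes with both kinds the circles lie above the triangles.

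Genes that build or control the complex were read from the same fit, where 3.08% of all genes were called higher and 3.02% lower. Of 19 assembly factors, which assist in joining the arms and are not part of the finished enzyme, 0 were called either way, with a median of 0.02. Ecsit differed by 0.33 ± 0.10 (adjusted p = 0.0642) and Tmem126b by -0.88 ± 0.30 (adjusted p = 0.0910), although both belong to the same assembly complex of the membrane arm. Tmem70, another membrane arm factor, differed by -0.38 ± 0.16. Of the mitochondrially encoded subunits ND5, a proton pump of the membrane arm, was the 1 with a probe set of its own. It was higher by 0.32 ± 0.084 (adjusted p = 0.0391) at the authors' scaling, with overlapping groups, and differed by -0.03 after quantile normalization.

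Of 13 regulators of mitochondrial genes 1 was higher and 1 lower, with a median of -0.23. The coactivator Ppargc1b rose by 0.70 ± 0.19 (adjusted p = 0.0493), without overlap between the diets, and was not called after quantile normalization (0.75, adjusted p = 0.0524). The NAD-dependent deacetylase Sirt1 fell, with a difference of -0.53 ± 0.12 (adjusted p = 0.0278), and its calorie-restricted values all lay below the control values. Sirt1 was still called after quantile normalization (-0.48, adjusted p = 0.0489). Nrf1, a transcription factor for nuclear genes of the respiratory chain, differed by 0.50 ± 0.14 (adjusted p = 0.0534), again without overlap.

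Other respiratory complexes also held called genes at the authors' scaling. Complex III had 2 of 9 genes higher, complex IV 7 of 16, complex V 5 of 17 and complex II 0 of 4, and no gene of these 4 was lower. Their medians were 0.14, 0.25, 0.12 and 0.00. Over all genes 3.08% were called higher and 3.02% lower. Of genes above log2 14 outside the Nduf family 55.7% were called higher, and the 7 called genes of complex IV were all this bright. After quantile normalization the medians of these complexes were -0.07, -0.00, -0.08 and -0.15, and 1 gene of complex III, Uqcrc2, was still called. There 1.59% of all genes were called higher and 1.72% lower. The 73 mitochondrial ribosomal proteins had a median of 0.05 with 1 higher. No difference between complex I and these groups was tested.

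Markers of kidney cells moved as well. Over all genes 3.08% were called higher and 3.02% lower, and of genes above log2 14 outside the Nduf family 55.7% were called higher. Several called tubule markers, among them Kap, Fbp1 and Slc34a1, were this bright. Of 5 tested genes of kidney identity 2 were higher and 0 lower, with a median of 0.39 (0.09 after quantile normalization, with 1 higher), and the podocyte gene Nphs1 differed by -0.35 ± 0.17. The 2 called, Kap and Slc34a1, are also counted among the proximal tubule markers. Of 15 proximal tubule markers 10 were higher and 0 lower, with a median of 0.38 (0.09 after quantile normalization, with 2 higher). Their summed signal was 269618 to 320618 on calorie-restricted and 190261 to 227733 on control arrays. Of 8 thick limb and distal tubule markers 0 were called (median 0.08, summed signal 76629 to 86018 and 63675 to 78286). Adipocyte markers had 2 of 5 lower, Fabp4 and Cidea, and a median of -0.82. The brown fat uncoupler Ucp1 among them was not called (limma, adjusted p = 0.0989) and its groups overlapped. Their summed signals were 6677 to 11928 on calorie-restricted and 14455 to 20383 on control arrays. Most of the sum was Fabp4, with means of 7781 of 9505 in calorie restriction and 12983 of 16434 in control. Macrophage markers had 3 of 9 lower (median -0.63, summed signal 14256 to 21871 and 17928 to 33593). B and plasma cell markers had 1 of 4 lower (median -1.11), stromal markers 2 of 8 lower (median -0.36) and red cell markers 1 of 2 higher (median 0.67). After quantile normalization 2 macrophage, 2 B and plasma cell, 2 stromal and 1 adipocyte marker were lower. Their medians there were -0.65, -1.21, -0.35 and -0.90, and red cell markers had 0 called (median 0.71). There 1.59% of all genes were called higher and 1.72% lower. Of 7 collecting duct markers 0 were called. The part of these cells in the subunit values was not tested.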

How the data were processed

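Total RNA (5 ug per kidney, Trizol extraction per the labels' protocols) was labelled as biotin cRNA. The deposited values are MAS5 signals, a linear intensity; per the submitters' processing notes Affymetrix Expression Console was used, and the trimmed mean of every deposited array was 500.003. Signals below 1 were set to 1 and log2 was taken from the deposited intensity. The 64 Affymetrix control probe sets were left out. Probe sets were tested when their mean log2 signal reached the median of all probe sets, 6.81, which left 22519. The diets were compared with limma 3.58.1 (R 4.3.3, eBayes with an intensity trend, 2-sided, Benjamini-Hochberg over all tested probe sets), and 6.09% of the probe sets passed. Members, lists and tests were chosen with earlier results of these data known. Named subunits were the core genes, the 8 called genes with the smallest p, 4 further called genes with the largest difference, 4 genes not called with the smallest p, the 3 lowest differences, the brightest, the dimmest, Ndufab1 and Ndufa4, and from other lists up to 3 genes by p. All 34 symbols matched RefSeq by gene ID. The fit was tested on simulated data, and other scalings, filters, variance settings, covariates, probe set rules and left-out mice were tried. Each mouse gave 1 array, and 5 per diet limits the precision. No 2 arrays were identical (Spearman's rho 0.922 to 0.951).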

Additional observations from a re-analysis of the deposited data

How the results depend on the processing

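With 5 mice per diet, the count of called subunits moved with most settings while 0 to 1 were lower. Against 13 higher, the count was 2 without a filter on signal, 4 after quantile normalization and 6 after median centring. It was 3 after cyclic loess and 7 when the probe sets of each gene were averaged. The share of all genes called either way in these fits was 0.874%, 3.31%, 6.9%, 3.71% and 4.71%, against 6.1% in the main fit. The count stayed at 13 with 50 added to the signal (6.38%), with robust eBayes (6.08%) and with array weights (10.2%). With only the brightest 30% of probe sets tested it was 14 (10.9%). The count was 0 by eBayes without an intensity trend (0.968% of all genes called). It was 0 with the 3' to 5' ratio as covariate (0.0574%), and 0 also with quantile normalization (0.0246%). In replicates 4 and 5 alone it was 0 (1.01%), and 0 also with quantile normalization (0.779%). For calorie-restricted replicates 4 and 5 against all controls it was 0, as it was over all genes. Leaving out 1 mouse gave a count from 1, without control replicate 2, up to 14, with calorie-restricted replicate 5 left out, and 0 lower. Of all genes 0.566% and 10.8% were called in those 2 fits. Centring arrays on genes of like brightness, chosen after seeing the data, gave 3 higher and 1 lower (Ndufb5), where 16.4% of all genes were called. Same-numbered mice did not deviate together (correlations -0.14 to -0.087, none best with its own number). These correlations cannot settle whether same-numbered mice were paired or handled together. With the replicate block 0 subunits and 127 probe sets were called, and 0.615% of all genes. Median centring shifted the median of all genes to -0.10 and centring on genes of like brightness to -0.17.

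The subunits' median of 0.18 was 0.016 after quantile normalization, 0.078 after median centring, 0.047 after loess, 0.061 with covariate and quantile normalization, 0.25 in replicates 4 and 5 alone, 0.091 there with quantile normalization, 0.0075 after like-brightness centring, and 0.15 to 0.23 leaving out 1 mouse. Over all tested probe sets, 1371 were called, but 287 without a filter, 751 after quantile normalization, 853 after loess, 243 without a trend, 2292 with array weights, 9 with the covariate, 5 with covariate and quantile normalization, 198 in replicates 4 and 5 alone, 156 there with quantile normalization, 1 for calorie-restricted replicates 4 and 5 against all controls, 3246 at an adjusted p of 0.1, 3539 after like-brightness centring, and 125 to 2481 leaving out 1 mouse. The 3' to 5' difference of 0.62 ranged from 0.49 to 0.75 leaving out 1 mouse, and its exact permutation p from 0.0397 to 0.0794.

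Each named subunit was read under 27 or 28 alternatives, and each subunit and alternative gave 1 value. Of these values 36 changed sign, while 425 were rated the same as in the main fit, 204 weaker and 4 stronger. These counts pool called subunits with those not called. The called subunits passed the threshold under 6 (Ndufa12 and Ndufs8) to 21 (Ndufb7) of their 27 or 28 alternatives. After quantile normalization Ndufa1 was -0.0054, Ndufa4 -0.15, Ndufab1 -0.038 and Ndufb9 -0.093. After median centring Ndufa4 was -0.014, Ndufab1 -0.043 and Ndufs1 -0.034, and after loess Ndufa4 was -0.086, Ndufab1 -0.051, Ndufb9 -0.015 and Ndufs1 -0.0014. After like-brightness centring Ndufa4 was -0.084, Ndufab1 -0.11, Ndufs1 -0.10 and Ndufs3 -0.033. With the covariate Ndufb1 was 0.18, Ndufb5 0.026 and Ndufs4 0.22. With covariate and quantile normalization Ndufa4 was -0.016, Ndufb9 -0.039, Ndufb11 -0.00055, Ndufb1 0.20 and Ndufs4 0.20. In replicates 4 and 5 alone Ndufb1 was 0.25, Ndufb5 0.11 and Ndufs4 0.41, and there with quantile normalization Ndufb9 was -0.011, Ndufb11 -0.010, Ndufs8 -0.0056, Ndufb1 0.28 and Ndufs4 0.39. For calorie-restricted replicates 4 and 5 against all controls Ndufb1 was 0.20 and Ndufs4 0.096. Ndufab1 was -0.096 as the mean of its probe sets, Ndufs1 -0.0042 without control replicate 4, and Ndufc2 -0.083 on its probe set not ending in s_at or x_at. The cause was not tested.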
